A study of Arabidopsis thaliana with 9 samples.

Results

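The *XTH* genes of *Arabidopsis thaliana* encode xyloglucan endotransglucosylase/hydrolases, and the 33 members *XTH1* to *XTH33* were taken by locus code from the deposited expression table. Of the 33, 31 had values and 25 reached 10 fitted reads in all 3 columns of at least 1 genotype. The other 6 with values stayed under this minimum, and *XTH1* (AT4G13080) and *XTH2* (AT4G13090) had no values. Xyloglucan is the main hemicellulose that binds cellulose microfibrils in the primary wall of these plants, and XTH enzymes cut its backbone and rejoin the cut end to another xyloglucan chain or, in some members, to water. The first activity remodels the wall as cells grow, and the second shortens the polymer. Phylogeny places the members in subgroups I, II, IIIA and IIIB, of which IIIA is known for hydrolase activity.

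Messenger RNA was sequenced from whole seedlings of 3 genotypes, with 3 libraries each: wild-type Col-0, *exg1-1*, a T-DNA insertion mutant of *EXG1* (AT3G08030, spelled EVG1 in the labels), and *rlp44-3*, a mutant of *RLP44* (AT3G49750). *RLP44* encodes a receptor-like protein that links the state of the wall to brassinosteroid signalling, and the study asked how both mutants alter vascular regeneration. All plants had the Col-0 background, were 7 days old and grew vertically on half-strength medium at 20 °C in 8 h light and 16 h dark, and were frozen whole without further treatment. Each mutant was represented by a single allele.

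The deposited values were fitted means and not read counts. None was whole, and within a genotype the columns were proportional for each of the 25717 genes with values, so that each gene has 1 value per genotype and no spread between libraries. Levels below are therefore sums over the 3 columns of a genotype, scaled between genotypes and set against the Col-0 total as CPM (fitted CPM), or fitted CPM per kb of the longest annotated transcript where genes are compared with each other. No test, p-value or standard deviation could be derived. Fold differences are log2 ratios of these sums with a 95% counting interval, which covers counting error only and not the variation between plants. Column sums ranged from 8364383 to 9606982 in Col-0, from 10396228 to 12971468 in *exg1-1* and from 11015026 to 11535985 in *rlp44-3*.

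The mutated genes matched the labels. *EXG1* had 103 fitted CPM in Col-0, with 33.7 in *exg1-1* and 93.5 in *rlp44-3*. *RLP44* had 3.72 fitted CPM in Col-0, with 3.01 in *exg1-1* and 0.0316 in *rlp44-3*, from 102, 105 and 1.08 unscaled fitted reads. Among markers of the tissues in a whole seedling, those of the shoot moved little. Most root markers were lower than in Col-0, further so in *exg1-1*, and the summed seed markers were lower in both mutants. The 13 kept of 14 root markers had a median log2 fold difference from Col-0 of −0.32 in *exg1-1*, where 11 were lower, and of −0.07 in *rlp44-3*, where 10 were lower. Their summed level was 2880 fitted CPM in Col-0, with 2641 in *exg1-1* and 3009 in *rlp44-3*, of which the single gene *PYK10* gave most. Without *PYK10* the others summed to 112, 92.1 and 104. The root markers at or under 3 reads were 2 in Col-0 and 1 in each mutant. The 7 shoot markers had medians of 0.09 and 0.12. Seed storage and late embryo markers, summed over all 11 genes, kept or not, had 25.6 fitted CPM in Col-0, with 5.61 in *exg1-1* and 3.83 in *rlp44-3*. Most of the 7 kept ones reached the minimum only through Col-0, where they were high, so members past 1.5-fold are not counted for this list. Of the 11 seed markers, 2 were at or under 3 reads in Col-0, with 6 in *exg1-1* and 7 in *rlp44-3*. In whole seedlings, fewer cells of a type and less RNA per cell cannot be told apart, and the part of these markers in the differences below was not tested.

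The family shares a catalytic fold. In the RefSeq gene models of TAIR10.1, to which all 33 members matched by locus code, a 9-residue stretch with glutamate, aspartate and glutamate at alternate positions was found in 32 members and in all 25 kept ones. As background, the first glutamate of this stretch is the nucleophile of XTH enzymes and the second glutamate the acid/base. In 22 members the same 9 residues were encoded. The coding stretch is shown for 8 members: *XTH19*, *XTH20*, *XTH22* and *XTH24*, which had the largest differences in *exg1-1*, the *XTH4* and *XTH5* pair, *XTH31* of the hydrolase subgroup, and *XTH9*, in which the first codon departs from the aspartate codon of the others. Capitals mark the codons of the 3 acidic residues.
*XTH4*: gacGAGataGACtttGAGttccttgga
*XTH5*: gatGAGataGACtttGAGtttctaggg
*XTH9*: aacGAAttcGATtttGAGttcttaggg
*XTH19*: gatGAGattGATttcGAGtttttgggg
*XTH20*: gatGAAataGATtttGAGttcttggga
*XTH22*: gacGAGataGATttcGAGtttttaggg
*XTH24*: gatGAGattGATtttGAGttcttgggt
*XTH31*: gatGAGgtcGATatcGAGtttctaggg
All 8 stretches keep the acidic residues, while the codons around them vary. Proteins of the 25 kept members had between 269 and 343 residues, and the 300 pairs among them were between 34.6% and 93.3% identical, with a median of 48.0%. The longest stretch of identical transcript sequence between any pair was 68 bases, between *XTH18* and *XTH19*, which is shorter than the 150-base reads. *XTH15* was the only member that overlapped a gene on the other strand (AT4G14120). Since the sources used here do not say whether counting used the strand, the value of *XTH15* is uncertain.

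Levels of the 25 members spanned a wide range when set per length. In Col-0 the highest were *XTH7* (AT4G37800) with 160 fitted CPM per kb, *XTH4* (AT2G06850) with 137, *XTH31* (AT3G44990) with 94.9, *XTH24* (AT4G30270) with 72.9 and *XTH6* (AT5G65730) with 69.9. These 5 genes held 62.3% of the family's summed level per length. *XTH4* acts in xylem and fibre walls, *XTH31* belongs to the hydrolase subgroup, and *XTH24* was first described as a gene of meristems. The lowest was *XTH33* (AT1G10550), a member with a predicted membrane anchor, at 0.82 fitted CPM per kb. Of 19144 kept genes with an annotated transcript, *XTH4* had the highest mean over genotypes of the family and ranked 481, and *XTH12* had the lowest and ranked 18164.

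In *exg1-1* the order at the top differed. *XTH4* stood first with 220 fitted CPM per kb and *XTH24* second with 167, ahead of *XTH7* with 165. In *rlp44-3* the order began with *XTH4* at 167, *XTH7* at 161 and *XTH31* at 85.0. The summed level per length was 858 in Col-0, with 1096 in *exg1-1* and 906 in *rlp44-3*, and was thus 1.28-fold and 1.06-fold that of Col-0. Subgroup I gave most of it, with 455, 573 and 503. Subgroup II had 176 in Col-0, with 293 in *exg1-1* and 175 in *rlp44-3*, and its share of the family was 20.5% in Col-0, 26.7% in the first mutant and 19.3% in the second. *XTH24* alone held most of this difference. Without it, subgroup II summed to 103 in Col-0, with 126 in *exg1-1* and 110 in *rlp44-3*. Subgroup IIIA was lower than Col-0 in both mutants, with 119 in Col-0, with 98.2 in *exg1-1* and 106 in *rlp44-3*, and IIIB had 108, 132 and 123.

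**Figure D1:**
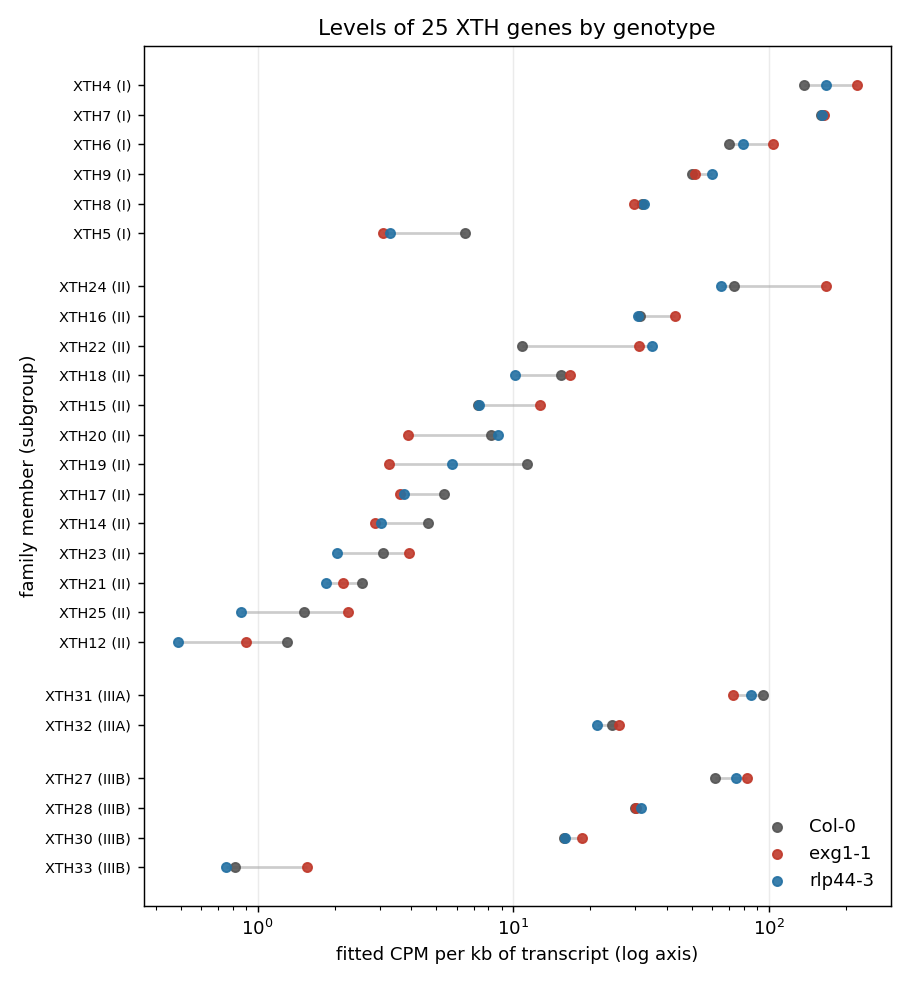
Levels of the 25 kept members in the 3 genotypes, as fitted CPM per kb of transcript on a log axis, grouped by subgroup and ordered by mean level. Each point is 1 fitted value per genotype, with no replicate spread, and a grey line joins the lowest and the highest. *XTH24* lies at 72.9 in Col-0, with 167 in *exg1-1* and 65.0 in *rlp44-3*.

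Compared with Col-0, *exg1-1* had 5 of the 25 members higher and 4 lower by 1.5-fold or more. The corresponding shares of all 19281 kept genes were 2.95% and 4.94%. Of the higher members, *XTH33* was under 10 in the Col-0 columns and reached the minimum only through the mutants. With at least 10 in all 9 columns, 4 members were higher and 4 lower. At 2-fold, 2 members were higher and 3 lower, where the shares of all kept genes were 0.949% and 1.45%. The median log2 fold difference of the members was 0.08, with quartiles of −0.39 and 0.57, and that of all kept genes was 0.00, with quartiles of −0.17 and 0.14. Differences in the family thus pointed both ways within 1 genotype.

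Subgroup I held abundant members that were higher and 1 low member that was lower. *XTH4* had 212 fitted CPM in Col-0 and 341 in *exg1-1*, a log2 fold difference of 0.68 (counting interval 0.64 to 0.73). *XTH6* had 103 and 152 fitted CPM (0.57), just under 1.5-fold. *XTH5* (AT5G13870), the closest relative of *XTH4*, went from 12.5 to 5.97 fitted CPM, a log2 fold difference of −1.06 (−1.32 to −0.81). In reads this was 342 over the 3 Col-0 columns and 208 over the 3 *exg1-1* columns. *XTH7*, *XTH8* (AT1G11545) and *XTH9* (AT4G03210) differed little, with 0.04, −0.10 and 0.05. *XTH9*, which like *XTH4* acts in secondary walls, had 75.8 fitted CPM in Col-0 and 78.3 in *exg1-1*.

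In subgroup II, 3 members were higher and 3 lower by 1.5-fold or more. *XTH22* (AT5G57560), known as *TCH4* for its induction by touch and by brassinosteroid, had 17.3 fitted CPM in Col-0 and 49.5 in *exg1-1*, a 2.86-fold higher value. *XTH24* had 88.2 and 202 fitted CPM, 2.29-fold higher, and *XTH15* (AT4G14130), a gene induced by shade, had 8.81 and 15.3, a log2 fold difference of 0.80 (0.57 to 1.02). *XTH16* (AT3G23730) had 38.2 and 52.0 fitted CPM (0.45), and *XTH25* (AT5G57550) had 1.80 and 2.68 (0.57, interval 0.06 to 1.11). *XTH23* (AT4G25810) and *XTH18* (AT4G30280) had log2 fold differences of 0.33 and 0.12, with intervals that reached 0.

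Of the lower members of subgroup II, *XTH19* (AT4G30290), which is induced with *XTH20* (AT5G48070) when a flowering stem is cut, had 15.2 fitted CPM in Col-0 and 4.35 in *exg1-1* and was 3.49-fold lower. *XTH20* had 11.5 and 5.46 fitted CPM and was 2.12-fold lower. *XTH14* (AT4G25820), expressed in root hairs, had 5.44 and 3.35 (log2 fold difference −0.70, interval −1.06 to −0.34). *XTH17* (AT1G65310), *XTH12* (AT5G57530) and *XTH21* (AT2G18800) were also on the lower side, with −0.57, −0.53 and −0.25, the last 2 with intervals that included 0. Beside these, root hair and root markers were on the lower side in the same plants, among them *PRP3* (−0.93), *COBL9* (−0.59) and *CASP5* (−0.55), while *IRT1*, the iron transporter of the root surface, had 0.553 fitted reads in Col-0, less than 1 read, and 5.57 in *exg1-1*.

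Of the 6 kept members of subgroup III, 1 was at least 1.5-fold higher and none lower. *XTH31* had 132 fitted CPM in Col-0 and 101 in *exg1-1* (−0.39), and its relative *XTH32* (AT2G36870) had 33.2 and 35.1 (0.08). *XTH27* (AT2G01850), which acts in tracheary elements of leaf veins, had 95.2 and 126 (0.41). *XTH30* (AT1G32170) had a log2 fold difference of 0.24 and *XTH28* (AT1G14720), known from stamen filaments, of 0.01. *XTH33* had 27.1 fitted reads in Col-0 and 65.5 in *exg1-1*, a log2 fold difference of 0.93 with a wide interval, from 0.28 to 1.65.

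In *rlp44-3*, 1 member was higher than in Col-0 and 7 were lower by 1.5-fold or more. Over all kept genes, 2.07% were higher and 2.73% lower by this measure, and 0.591% and 0.892% passed 2-fold, as did 1 member in each direction. The member lower by 2-fold was *XTH12*, which was under 10 in the *rlp44-3* columns and reached the minimum only through the other genotypes. With at least 10 in all 9 columns, 1 member was higher and 6 were lower by 1.5-fold or more. The members had a median log2 fold difference of −0.12, with quartiles of −0.59 and 0.08, but it was 0.00 over the 20 members that reached 50 in all 3 columns of 1 genotype. All kept genes had a median of 0.00, with quartiles of −0.11 and 0.10. Both mutants were compared with the same Col-0 libraries, so values shared by the mutants can come from Col-0 itself.

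*XTH22* was the higher member, with 17.3 fitted CPM in Col-0 and 55.3 in *rlp44-3*, a log2 fold difference of 1.68 (1.53 to 1.83). Of the 7 lower members, 6 were in subgroup II: *XTH12*, *XTH14*, *XTH18*, *XTH19*, *XTH23* and *XTH25*. *XTH19* had 15.2 fitted CPM in Col-0 and 7.72 in *rlp44-3* (−0.97, interval −1.20 to −0.75). *XTH18* had 19.4 and 12.9 (−0.59) and *XTH23* had 4.27 and 2.82 (−0.60). *XTH14* had 5.44 and 3.54 (−0.62). *XTH12* and *XTH25* were low in reads, with 40.8 and 49.3 in Col-0 and 19.0 and 34.8 in *rlp44-3*, and their log2 fold differences of −1.42 and −0.81 had intervals of −2.29 to −0.60 and −1.47 to −0.14. The seventh lower member was *XTH5* of subgroup I, with 12.5 and 6.33 fitted CPM (−0.98).

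The other members of *rlp44-3* stayed closer to Col-0. *XTH20* had 11.5 fitted CPM in Col-0 and 12.2 in *rlp44-3* (0.08, interval −0.13 to 0.30), and *XTH24* had 88.2 and 78.6 (−0.17). *XTH15* and *XTH16* had log2 fold differences of 0.01 and −0.02. *XTH17* and *XTH21* had −0.52 and −0.48, the latter with an interval of −0.94 to −0.01. In subgroup I, *XTH4*, *XTH9* and *XTH6* had 0.29, 0.27 and 0.18, and *XTH7* and *XTH8* had 0.01 and 0.03. In subgroup III, *XTH27* had 0.27, *XTH28* 0.09, *XTH30* 0.02, *XTH33* −0.12, *XTH31* −0.16 and *XTH32* −0.20. Root markers in *rlp44-3* included *CASP5* at −0.89, *PRP3* at −0.46 and *COBL9* at −0.22, and *IRT1* at 57.1 fitted reads.

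**Figure D2:**
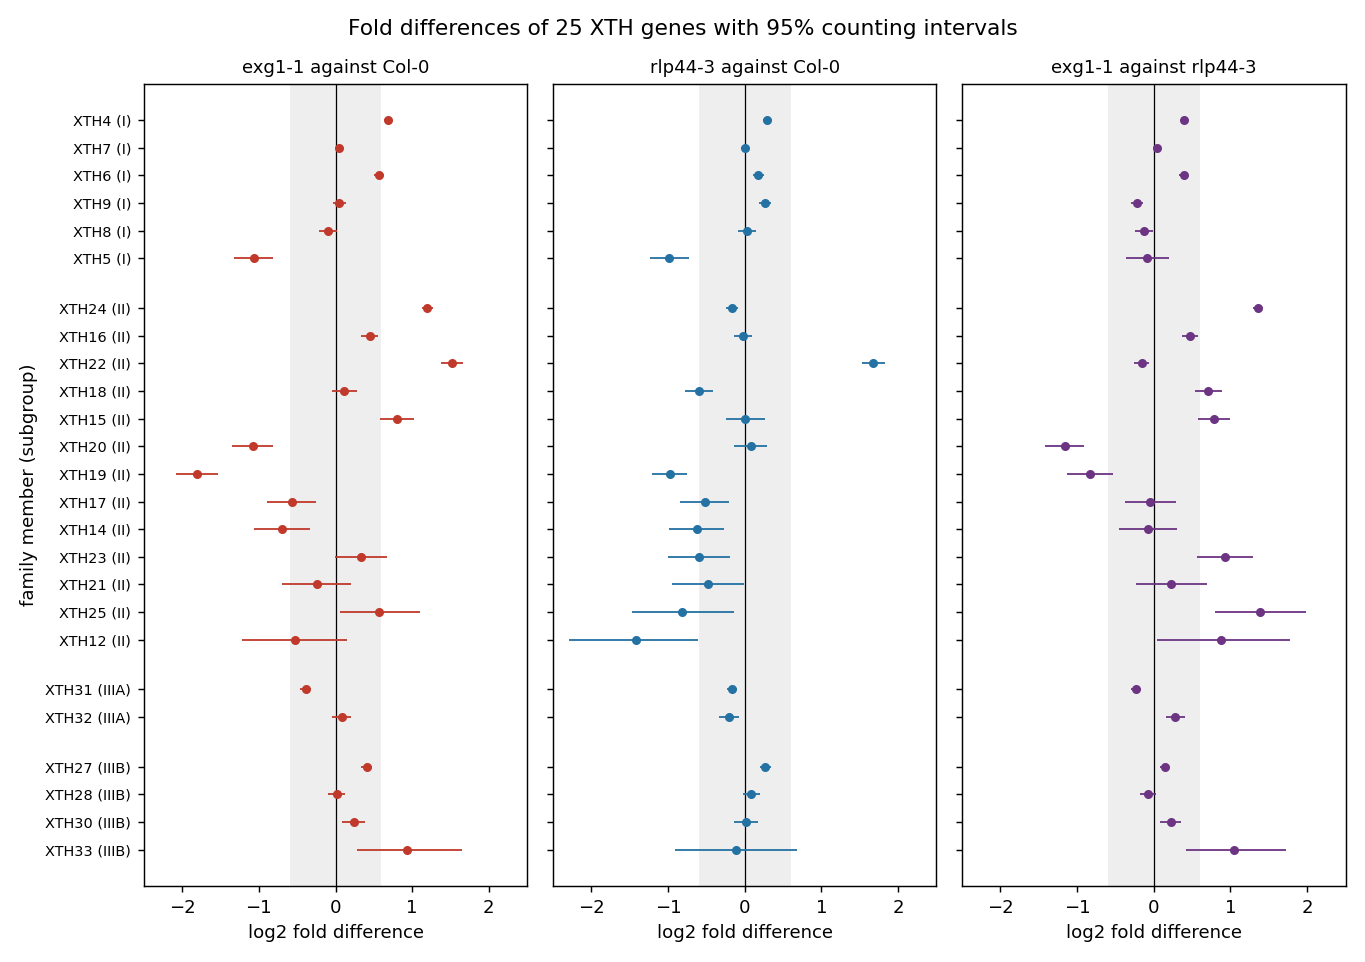
Log2 fold differences of the 25 kept members for *exg1-1* against Col-0, *rlp44-3* against Col-0 and *exg1-1* against *rlp44-3*, by subgroup. Points are ratios of fitted values, bars are 95% counting intervals, and the grey band marks differences under 1.5-fold. *XTH22* lies at 1.52 and 1.68 in the first 2 panels, and *XTH24* at 1.20 in the first and −0.17 in the second.

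*XTH22* was 2.86-fold and 3.20-fold higher in the mutants, and genes that respond to touch or handling were on the higher side in the same libraries. Of 7 such genes, 2 were at least 1.5-fold higher in *exg1-1* and 4 in *rlp44-3*, where the shares of all kept genes were 2.95% and 2.07%. These counts include *WRKY40*, which had only 19.0 fitted reads over the Col-0 columns and reached the minimum only through the mutants. The median log2 fold differences were 0.50 and 0.64. *WRKY40* had 1.70 and 1.24, the calmodulin-like *CML12* (*TCH3*) 1.01 and 0.64, the zinc finger genes *ZAT10* 0.57 and 1.09, and *SZF1* 0.50 and 0.89. The others included *ZAT12* at −0.06 and 0.07 and *CAM2* at −0.02 and −0.06. The summed level of the list was 90.6 fitted CPM in Col-0, with 111 in *exg1-1* and 118 in *rlp44-3*, and its part in the *XTH22* difference was not tested.

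The mutants were also compared with each other, on the scale and over the kept genes set with Col-0. Between *exg1-1* and *rlp44-3*, 7 members were higher in *exg1-1* and 2 lower by 1.5-fold or more, where the shares of all kept genes were 2.90% and 3.93%. With at least 10 in all 9 columns, which leaves out *XTH12* and *XTH33*, 5 members were higher and 2 lower. At 2-fold, 3 members were higher and 1 lower, against 0.892% and 1.05% of all kept genes. The median over the members was 0.22, with quartiles of −0.08 and 0.71, and over all kept genes 0.00. Of the 13 kept members of subgroup II, 6 were higher and 2 lower by this measure. No member of subgroup I and only *XTH33* of subgroup III passed it.

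*XTH24* was the most abundant of these genes, at 202 fitted CPM in *exg1-1* and 78.6 in *rlp44-3* (log2 fold difference 1.36, interval 1.30 to 1.43). *XTH25* had 2.68 and 1.02 fitted CPM, and 93.3 and 34.8 reads (1.39, interval 0.80 to 1.98). *XTH23* had 5.37 and 2.82 (0.93, interval 0.56 to 1.30), *XTH15* had 15.3 and 8.85 (0.79), and *XTH18* had 21.0 and 12.9 (0.71). *XTH12* and *XTH33*, both under 100 reads per genotype, had 0.88 (0.05 to 1.77) and 1.04 (0.42 to 1.72). The lower genes were *XTH20*, with 5.46 fitted CPM in *exg1-1* and 12.2 in *rlp44-3* (−1.16, interval −1.42 to −0.91), and *XTH19*, with 4.35 and 7.72 (−0.83, interval −1.13 to −0.54). *XTH22* and *XTH5*, which differed from Col-0 in both mutants, were close between the mutants, with −0.16 (−0.26 to −0.07) and −0.08 (−0.36 to 0.20).

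Between the mutants, the remaining members lay under 1.5-fold. *XTH16*, *XTH4* and *XTH6* had 0.47, 0.40 and 0.39, *XTH32* 0.28, *XTH21* 0.23, *XTH30* 0.22 and *XTH27* 0.14. *XTH7*, *XTH17*, *XTH14*, *XTH28*, *XTH8*, *XTH9* and *XTH31* lay between −0.23 and 0.04.

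Values of neighbouring members were set side by side. With members less than 10 kb apart taken as a cluster, 11 of the 33 fell into 4 clusters, of which that of *XTH1* and *XTH2* had no values. On chromosome 4 (TAIR10.1), *XTH24*, *XTH18* and *XTH19* lie within 11.0 kb on the same strand. Their log2 fold differences in *exg1-1* were 1.20, 0.12 and −1.80 in that order along the chromosome, and in *rlp44-3* −0.17, −0.59 and −0.97. The first gene of the cluster was thus higher and the last lower than Col-0 in *exg1-1*, and *XTH24* and *XTH19* share 70.0% of their aligned residues. *XTH18* and *XTH19*, with 0.12 and −1.80, share 92.1%.

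On chromosome 5, *XTH12*, *XTH13* (AT5G57540), *XTH25* and *XTH22* lie within 8.36 kb on the same strand. In *rlp44-3*, *XTH22* was higher and *XTH25* (−0.81) and *XTH12* (−1.42) were lower, and in *exg1-1* the 3 had 1.52, 0.57 and −0.53. *XTH13* was the member just outside the minimum, with 9.97 fitted reads in its lowest Col-0 column, and *XTH12*, with 12.5, was just inside. *XTH13* had 32.7 fitted reads over the Col-0 columns, 7.16 in *exg1-1* and 6.99 in *rlp44-3*, log2 fold differences of −2.54 in each mutant with intervals of −4.00 to −1.38 and −3.97 to −1.35. Its value was singled out after it was seen, and it enters no count here. In the third cluster, also on chromosome 4, *XTH23* and *XTH14* lie within 3.47 kb and had 0.33 and −0.70 in *exg1-1* and −0.60 and −0.62 in *rlp44-3*. The remaining 5 members under the minimum had between 0.552 and 30.4 fitted reads per genotype.

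**Figure D3:**
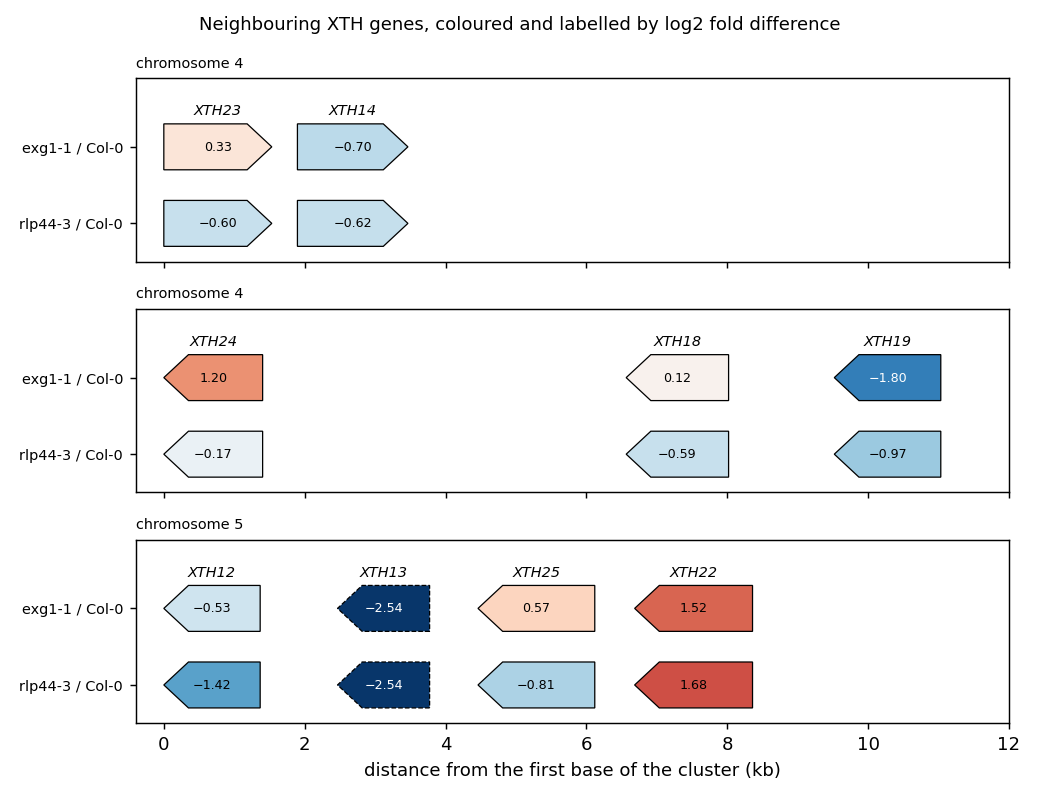
The 3 clusters of neighbouring members with values, drawn to scale as distance in kb from the first base of each cluster, with arrows in the direction of transcription. Colours and printed values are log2 fold differences from Col-0 in *exg1-1* (upper arrows) and *rlp44-3* (lower arrows), and dashed outlines mark *XTH13*, which was under the minimum. In the second panel, *XTH24* has 1.20 and *XTH19* −1.80 in *exg1-1*.

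Close relatives were compared in the same way. Among the kept members, 7 pairs were each other's closest protein in the family. *XTH4* and *XTH5*, 76.7% identical, had log2 fold differences of 0.68 and −1.06 in *exg1-1* and of 0.29 and −0.98 in *rlp44-3*. *XTH22* and *XTH23*, 84.0% identical, had 1.52 and 0.33 in *exg1-1* and 1.68 and −0.60 in *rlp44-3*. *XTH17* and *XTH18*, the most alike with 93.3%, had −0.57 and 0.12 in *exg1-1* and −0.52 and −0.59 in *rlp44-3*. The pair *XTH15* and *XTH16* (85.8%) was on the higher side together in *exg1-1*, with 0.80 and 0.45, and near 0 in *rlp44-3*. The pairs *XTH27* and *XTH28* (78.6%), *XTH6* and *XTH7* (75.1%) and *XTH31* and *XTH32* (66.6%) differed by less than 1.5-fold from Col-0 in either mutant.

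**Figure D4:**
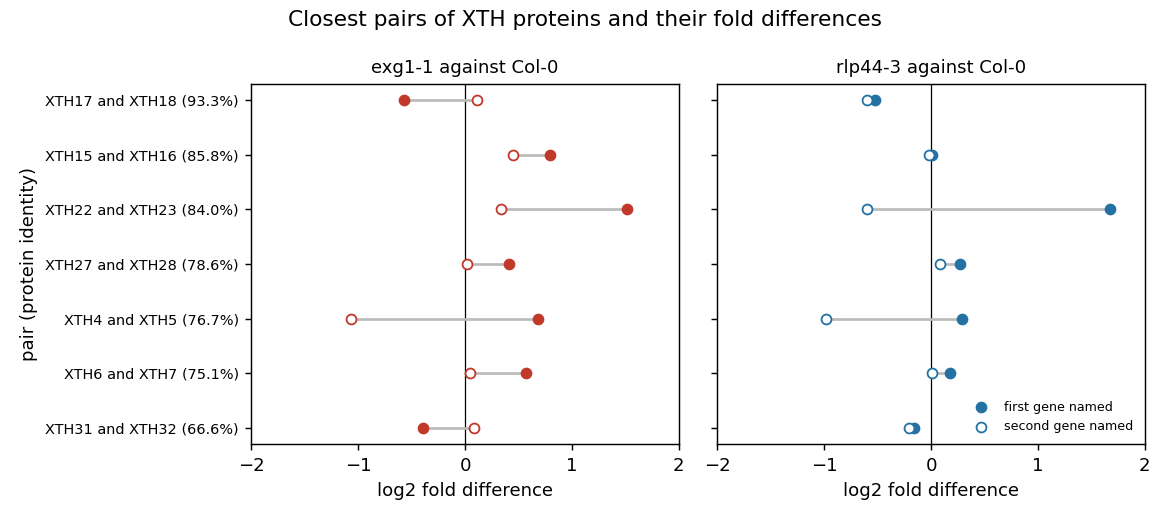
The 7 pairs of kept members that are each other's closest protein, ordered by protein identity, with the log2 fold difference from Col-0 in *exg1-1* (left) and *rlp44-3* (right). Filled circles are the first gene named and open circles the second, each 1 fitted value. *XTH4* and *XTH5* lie on opposite sides of 0 in both panels.

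Upstream sequence is shown for 3 of the 4 members with the largest differences in *exg1-1*, 1 that was higher and 2 that were lower, so that the promoters of genes that differed in opposite directions can be read side by side. Each window holds 250 bases before and 50 after the gene start in RefSeq TAIR10.1, on the strand of the gene. *XTH19* lies at chr4:14830175-14830474 (minus strand), *XTH22* at chr5:23308631-23308930 (minus) and *XTH20* at chr5:19481647-19481946 (plus). Capitals mark matches, on either strand, to any of 9 short motifs.
*XTH19*: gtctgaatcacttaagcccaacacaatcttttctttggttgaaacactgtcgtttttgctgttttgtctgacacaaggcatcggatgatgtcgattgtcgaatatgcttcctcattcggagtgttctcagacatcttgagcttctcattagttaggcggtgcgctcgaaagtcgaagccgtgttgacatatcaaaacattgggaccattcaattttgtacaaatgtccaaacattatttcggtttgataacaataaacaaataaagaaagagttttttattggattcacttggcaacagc
*XTH22*: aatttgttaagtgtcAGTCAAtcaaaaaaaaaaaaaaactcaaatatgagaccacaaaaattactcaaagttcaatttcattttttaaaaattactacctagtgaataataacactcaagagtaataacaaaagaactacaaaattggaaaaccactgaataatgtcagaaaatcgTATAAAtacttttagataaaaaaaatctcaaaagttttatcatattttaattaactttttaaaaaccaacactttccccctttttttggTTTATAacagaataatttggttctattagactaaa
*XTH20*: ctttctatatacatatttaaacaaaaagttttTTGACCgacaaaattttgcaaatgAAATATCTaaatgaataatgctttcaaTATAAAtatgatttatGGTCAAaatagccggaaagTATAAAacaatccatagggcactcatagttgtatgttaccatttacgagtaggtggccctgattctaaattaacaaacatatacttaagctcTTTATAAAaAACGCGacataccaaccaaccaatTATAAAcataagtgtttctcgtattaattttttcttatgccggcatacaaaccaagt
The motifs were the TATA box (TATAAA), the G-box (CACGTG) and the brassinosteroid response elements CGTGTG and CGTGCG. Others were the W-box cores TTGACC and TTGACT bound by WRKY factors, the rapid stress response element (CGCGTT) and the evening element core (AAATATCT). The last was the abscisic acid response element (ACGTGNC), which can overlap the G-box. *XTH22* had TATA box matches from positions −74 and 16 and a W-box core from −235, counted from the gene start. *XTH20* had 5 TATA box matches, of which those at −40 and −38 overlap, together with W-box cores at −218 and −151. It also had an evening element core at −194 and a rapid stress response element at −31. *XTH19* had none of the 9 motifs in this window.

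Over the family, 23 of 33 promoters held a TATA box (69.7%), where 52.1% of all 27443 promoters of protein-coding genes did. A G-box was in none of the 33 and in 7.68% of all. The brassinosteroid response element CGTGTG was in 4 members (12.1%), among them *XTH8*, *XTH23* and *XTH25*, and in 6.52% of all, and CGTGCG was in no member and in 1.96% of all. TTGACC was in 6 members (18.2%) against 14.2% of all, and TTGACT in 2 members (6.06%) against 21.8%. The evening element core was in 4 members, *XTH5*, *XTH12*, *XTH20* and *XTH27* (12.1%), against 5.65%. The rapid stress response element was in 3 (9.09%) against 3.40%, and the abscisic acid response element in 1 (3.03%) against 10.3%. A match is a run of letters and does not show that a factor binds.

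Genes that make and trim xyloglucan were examined beside the family. The list held 17 genes, the *CSLC* glucan synthases, the *XXT* xylosyltransferases, galactosyl-, fucosyl- and acetyltransferases, and the wall enzymes that trim side chains, and all 17 were kept. None differed by 1.5-fold or more in any of the 3 comparisons. Of all kept genes, 7.89% did so in *exg1-1* and 4.80% in *rlp44-3* against Col-0, and 6.83% between the mutants. In a list of 17 genes, a count of none is near these shares. In *exg1-1* the median log2 fold difference was −0.01, from −0.42 for *FUT1*, which adds fucose, to 0.29 for the fucosidase gene *FUC95A*. In *rlp44-3* it was −0.03, from −0.49 for *TBL27*, an acetyltransferase, to 0.19 for *FUC95A*. The galactosyltransferase genes *MUR3* and *XLT2* had −0.33 and −0.26 in *exg1-1* and −0.18 and −0.32 in *rlp44-3*. Their summed level was 874 fitted CPM in Col-0, with 880 in *exg1-1* and 848 in *rlp44-3*, beside 1197, 1530 and 1280 for the kept *XTH* members.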

How the data were processed

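The authors extracted total RNA from whole seedlings, selected polyadenylated mRNA, prepared directional libraries, read them as 150-base pairs, trimmed with fastp, mapped to TAIR10 with HISAT2, counted with HTSeq and fitted with DESeq2, per the labels and the study's methods. Tool versions and strand use are not given in the sources used here. Although its name says raw counts, the values the authors deposited are fitted means on the scale of reads, another unit than counts: none was whole within 1e-06, and the columns of a genotype were proportional within 1.91e-14. Of 33341 rows, 7624 had no values. The headers of the mutant columns give the mutated gene and a number that can be read as the allele or as the replicate. Only the genotype was therefore taken from them, and 3 columns that match no sample were not used. Count tests had been planned and could not be run.

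The 3 columns per genotype were summed. Genes were kept at 10 or more in all 3 columns of at least 1 genotype (19281 genes), and genotypes were scaled by a trimmed mean of log ratios (TMM, trimming 30% of log ratios and 5% of levels at each end), with log2 scales against Col-0 of 0.35 for *exg1-1* and 0.31 for *rlp44-3*. A difference was called at 1.5-fold. Counting intervals are exact Clopper-Pearson intervals on rounded sums and cover counting error only. Every member at or above the minimum was named, and of other lists at most 4 genes with the largest differences, *CAM2*, *ZAT12*, *PYK10* and *FUC95A* being added after their values were seen. Members and lists were chosen with earlier results of these data known. Gene models, promoters and sequences were taken by locus code from RefSeq TAIR10.1, and protein identity from global alignments (BLOSUM62) over aligned residues. Promoters were to be printed for the 4 members with the largest differences in *exg1-1*, and 1 of them is not reported here. Simulated data were used to test the scaling. Alternatives were other scalings (RLE, upper quartile, totals), other filters, a 2-fold threshold, omission of organelle genes and coding length in place of transcript length. Python 3.11.15 was used with numpy 2.4.6, pandas 2.3.3, scipy 1.17.1, Biopython 1.88 and matplotlib 3.10.9.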

Additional observations from a re-analysis of the deposited data

How the results depend on the processing

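Of the 26 member differences past 1.5-fold over the 3 comparisons, none changed direction under another scaling, filter or gene set, and 1 fell under 1.5-fold, that of *XTH18* in *rlp44-3* with totals (−0.58 against −0.59). Those of *XTH17* in *exg1-1* passed it with upper quartile scaling and totals (−0.61 and −0.62), and *XTH6* and *XTH25* passed it with no filter (both 0.59). No member difference moved by more than 0.06 on the log2 scale. The median over members depended on the filter. In *rlp44-3* it was −0.12, moved to −0.02 with at least 10 in all 9 columns, and was 0.0025 with at least 50 in all 3 columns of 1 genotype. Between the mutants it was 0.22 and moved to 0.14 and 0.08 under these filters, and in *exg1-1* it ranged from 0.03 to 0.08. With no filter, 31 members entered, and 8 were at least 1.5-fold higher and 7 lower in *exg1-1*, 2 were higher in *rlp44-3*, and 4 were lower in *exg1-1* than in *rlp44-3*. Of the 3 more higher members in *exg1-1*, *XTH6* and *XTH25* were already kept and *XTH3* was added. With at least 50 in all 3 columns of 1 genotype, which kept 20 members, 4 were lower in *rlp44-3* than in Col-0 and 4 were higher in *exg1-1* than in *rlp44-3*. At 2-fold, 2 were higher in *exg1-1* than in Col-0, 1 fell below Col-0 by this measure in *rlp44-3*, and 3 were higher and 1 lower in *exg1-1* than in *rlp44-3*. With coding length, 9 of the 10 members with the highest levels per length were the same. No paired analysis was possible because the columns hold 1 fitted value per genotype and no replicate spread. For the same reason the omission of single libraries and the count models planned were not run. Depth limits members under about 100 reads per genotype, *XTH12*, *XTH21*, *XTH25* and *XTH33*, whose counting intervals were widest.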
